A study of Mus musculus with 3 samples.

Results

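The myogenic transcription factors described here are 9 genes that specify skeletal muscle, or drive or repress its differentiation. These are Pax3, Pax7, Lbx1, Msc, Mef2c, Myf5, Myf6, Myod1 and Myog. They were examined in a list of peaks called from ChIP-seq of the tagged forkhead factor Foxf2. A peak was given to a gene when its midpoint lay nearer to a transcription start site (TSS) of that gene than to the TSS of any other protein-coding gene (GENCODE M21 basic transcripts, mm10 build). By this rule 26 of 25704 peaks belonged to the 9 genes. At least 1 peak fell to 5 of the 9, and 37.3% of all 21938 protein-coding genes had one.

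The samples were 2 anti-FLAG ChIP-seq libraries and 1 input library, all from tongues of mouse embryos at E12.5 that were homozygous for Foxf2 carrying a 3xFLAG tag on the endogenous protein (Foxf2FLAG/FLAG). The labels name 75 dissected tongues on each sample without saying whether this was per library or in all, so each library is a pool of whole tongues. All libraries share the tagged allele, and no FLAG ChIP from untagged tongues was among the samples used here. The authors' peak list is 1 table with no value per library, so every comparison here is across peaks or genes of a single list, sequencing depth is unknown, and no replicate error can be given. It holds no expression values, so the presence of muscle cells in the tissue could not be checked against their markers.

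Muscle of the tongue comes from precursor cells that leave the occipital somites and migrate into the tongue bud, where they mix with mesenchyme of neural crest origin. Pax3 and Pax7 are paired-homeodomain factors of these precursors, and Lbx1 is a homeodomain factor needed by the ones that migrate. Myf5, Myf6, Myod1 and Myog are basic helix-loop-helix (bHLH) factors that commit cells to the muscle fate and then drive differentiation by binding E-boxes, sequences of the form CANNTG. Msc (musculin, also called MyoR) is a bHLH repressor of myogenesis and a regulator of head muscle. Mef2c is a MADS-box factor that works together with the myogenic bHLH proteins and is also active in heart, neural crest and endothelium. Foxf2 is a forkhead factor of mesenchyme, and forkhead proteins bind a core of 7 bases that was searched here on both strands. The form GTAAACA was searched together with its variant GTAAATA and with the same pair beginning with A, which are ATAAACA and its own variant ATAAATA.

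The sequences below are those of the highest-scored peak of each gene and of the peak nearest to its TSS. They are shown because they were called as peaks at these loci. They were read from the GRCm38 (mm10) plus strand, 213 bases each. Capitals mark the forkhead core. In the 3 peaks that hold no full core (the highest-scored one of Msc, the nearer one of Pax7 and that of Myod1), they mark the 6-base forms TAAACA and GTAAAC and the E-boxes CAGCTG and CATCTG, on either strand.
Pax3, highest score, intron, chr1:78113511-78113723: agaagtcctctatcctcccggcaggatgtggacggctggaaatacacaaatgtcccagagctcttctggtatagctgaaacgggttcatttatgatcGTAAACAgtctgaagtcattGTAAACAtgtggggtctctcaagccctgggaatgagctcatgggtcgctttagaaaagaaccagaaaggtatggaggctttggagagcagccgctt
Pax3, nearest to the TSS, upstream, chr1:78210060-78210272: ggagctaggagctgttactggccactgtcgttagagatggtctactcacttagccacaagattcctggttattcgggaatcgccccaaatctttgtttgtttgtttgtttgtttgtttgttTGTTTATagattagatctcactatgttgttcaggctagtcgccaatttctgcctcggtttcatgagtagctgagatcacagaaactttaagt
Pax7, highest score, intron, chr4:139760837-139761049: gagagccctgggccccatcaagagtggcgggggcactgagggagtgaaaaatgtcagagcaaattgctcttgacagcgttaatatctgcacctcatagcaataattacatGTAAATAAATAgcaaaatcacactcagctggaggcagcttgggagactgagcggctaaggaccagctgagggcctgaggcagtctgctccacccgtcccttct
Pax7, nearest to the TSS, intron, chr4:139824673-139824885: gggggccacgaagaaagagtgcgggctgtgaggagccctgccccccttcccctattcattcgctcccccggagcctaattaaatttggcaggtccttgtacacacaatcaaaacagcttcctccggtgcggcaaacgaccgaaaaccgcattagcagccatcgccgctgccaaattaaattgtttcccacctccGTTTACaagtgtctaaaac
Msc, highest score, downstream, chr1:14570064-14570276: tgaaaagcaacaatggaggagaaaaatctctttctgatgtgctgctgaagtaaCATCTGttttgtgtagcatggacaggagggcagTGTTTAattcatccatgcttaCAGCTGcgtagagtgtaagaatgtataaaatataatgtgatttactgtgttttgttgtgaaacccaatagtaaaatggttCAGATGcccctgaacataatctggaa
Msc, nearest to the TSS, upstream, chr1:14776904-14777116: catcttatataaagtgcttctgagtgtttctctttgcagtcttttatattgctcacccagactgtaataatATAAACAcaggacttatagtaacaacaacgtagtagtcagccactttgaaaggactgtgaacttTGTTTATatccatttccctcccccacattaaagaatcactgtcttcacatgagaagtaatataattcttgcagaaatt
Mef2c, highest score and nearest to a TSS, chr13:83572511-83572723: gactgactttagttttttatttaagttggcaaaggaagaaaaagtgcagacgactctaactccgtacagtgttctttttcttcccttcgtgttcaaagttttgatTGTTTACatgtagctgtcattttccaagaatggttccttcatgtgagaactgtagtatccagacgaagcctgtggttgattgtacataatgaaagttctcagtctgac
Myod1, upstream, chr7:46350655-46350867: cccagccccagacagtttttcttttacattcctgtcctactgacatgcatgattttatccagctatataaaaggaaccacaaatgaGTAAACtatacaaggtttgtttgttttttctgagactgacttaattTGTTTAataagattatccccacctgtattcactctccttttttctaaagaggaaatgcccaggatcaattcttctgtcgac

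The highest-scored peak at Pax3 carries a pair of GTAAACA cores in the same orientation, with starts 20 bp apart, just left and right of its centre. The highest-scored intronic peak of Pax7 carries GTAAATA and ATAAATA overlapping in 1 run. The Myod1 peak holds no full core in its 213 bases.

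Pax3 had more peaks than any other member. Its 11 peaks lay in a territory of 397.8 kb, the bases nearer to its TSSs than to another protein-coding TSS, or 2.77 per 100 kb. The autosomal mean was 1.03 per 100 kb. Of all protein-coding genes, 2.26% had 10 or more peaks, and Pax3 and Mef2c were both among them. That share is over territories of all sizes, with a median of 47 kb. It was not computed for territories as large as those of Pax3 and Mef2c.

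The Pax3 peaks were almost all on the downstream side of the TSS, where most of its territory also lay. That territory ran from -56.6 kb (upstream) to 341.2 kb (downstream) of the outermost TSS. The gene runs along the minus strand of chromosome 1 from 78101267 to 78197134. A single peak lay upstream, 13 kb from the TSS, with a score of 10.6 (the caller's value, whose scale is not stated). Inside the introns were 4 peaks with scores of 18.3, 18.4, 12.2 and 35, at 25.1, 38.7, 75.5 and 83.2 kb downstream of the TSS. The other 6 lay past the end of the gene, between 18.2 and 97 kb beyond it, toward Epha4, the next protein-coding gene on that side.

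The downstream region also held most of the higher-scored Pax3 peaks. Beyond the gene end, the scores from near to far were 34.1, 13.2, 34.7, 21.8, 11.4 and 32.7. Of the 4 Pax3 peaks above 32, 1 was the intronic peak with the pair of cores and 3 were in this region. Those with scores of 34.7 and 21.8 lay 918 bp apart. With noncoding genes included, all 6 were nearer to the TSS of Gm28387, a long intergenic noncoding RNA, and 5 peaks stayed with Pax3.

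Pax7, the close relative of Pax3, had 2 peaks, both in introns of the gene, which spans 139737062 to 139833528 on the minus strand of chromosome 4. One was 8.23 kb downstream of the nearest TSS with a score of 10.4, and the other was 72.1 kb downstream with a score of 17.2. Over its territory of 157.5 kb this was 1.27 peaks per 100 kb. The nearer peak was among the lowest of the list, at rank 24291 of 25704.

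Lbx1, on the minus strand of chromosome 19 (45232684 to 45235812), had no peak in its territory of 106.1 kb. The nearest peaks on either side belonged to neighbours. Upstream, 67.2 kb from the Lbx1 TSS, lay a peak nearer to Btrc (score 14.9). Downstream, 58.6 kb away, lay one nearer to Tlx1 (score 16.1).

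Msc, on the minus strand of chromosome 1 (14753346 to 14755990), had 2 peaks far from the gene. The higher-scored, 24.9, lay 185.8 kb downstream, in intergenic sequence toward Eya1, itself a regulator of muscle precursors. The other, 13.8, lay 21 kb upstream at the annotated end of the antisense transcript Gm9947. The Msc territory of 304.3 kb held 0.657 peaks per 100 kb, below the autosomal mean.

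Mef2c had 10 peaks, but in a territory of 1255 kb, or 0.797 per 100 kb. It was the only member with a peak in the promoter of its own gene (from 1000 bp before a TSS to 100 bp after it). That peak, 0.99 kb upstream of an internal TSS, also had the highest score of the 10, 22.6. The gene spans 83504034 to 83667080 on the plus strand of chromosome 13 and has 11 annotated TSSs.

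The remaining Mef2c peaks were spread widely, and 2 of the 9 scored above the list median of 16.2. Within the gene, the other two peaks scored 17.1 and 13.4. Upstream of the gene lay 6, at 42, 44.9, 301.4, 371, 532.1 and 545.5 kb, with scores of 12.8, 13.1, 12.8, 16.7, 10.6 and 10.9. The last one, 71.6 kb past the gene end with a score of 11.7, lay just upstream of the annotated start of the microRNA gene Mir9-2, within its noncoding host C130071C03Rik.

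The 4 myogenic bHLH activators had 1 peak in all. It lay 25.7 kb upstream of Myod1, a determination gene on the plus strand of chromosome 7 (46376474 to 46379099), with a score of 14.2. Over the Myod1 territory of 50.6 kb this single peak was 1.98 per 100 kb, against the autosomal mean of 1.03. The peak was nearer to the TSS of 1700025L06Rik, a long intergenic noncoding RNA, and fell to that gene when noncoding genes were included. Distal enhancers upstream of Myod1 are well known, but their coordinates were not used here, and overlap with them was not tested.

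Myf5 and Myf6 are neighbours on the minus strand of chromosome 10 (107482908 to 107486134 and 107492853 to 107494737), and neither had a peak. The list held nothing across 518.5 kb around them, and 2.89% of the gaps between neighbouring peaks of the list were at least as long. That is a share of gaps, and longer gaps cover more sequence. The share of the genome inside gaps this long is therefore larger than 2.89%, and it was not computed. The nearest peak downstream was 133.8 kb from the Myf5 TSS, beside Lin7a (score 13). The nearest upstream was 376.1 kb from the Myf6 TSS, in Otogl (score 15.2), beyond Ptprq, the gene next to Myf6.

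Myog, the differentiation factor, lies on the plus strand of chromosome 1 (134289989 to 134292548) and had no peak either. Its nearest ones were 92 kb downstream (score 19.2, nearest to 4933406M09Rik) and 146.9 kb upstream (score 17.7, nearest to Chit1). The peak-free stretch was 238.9 kb.

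**Figure D1:**
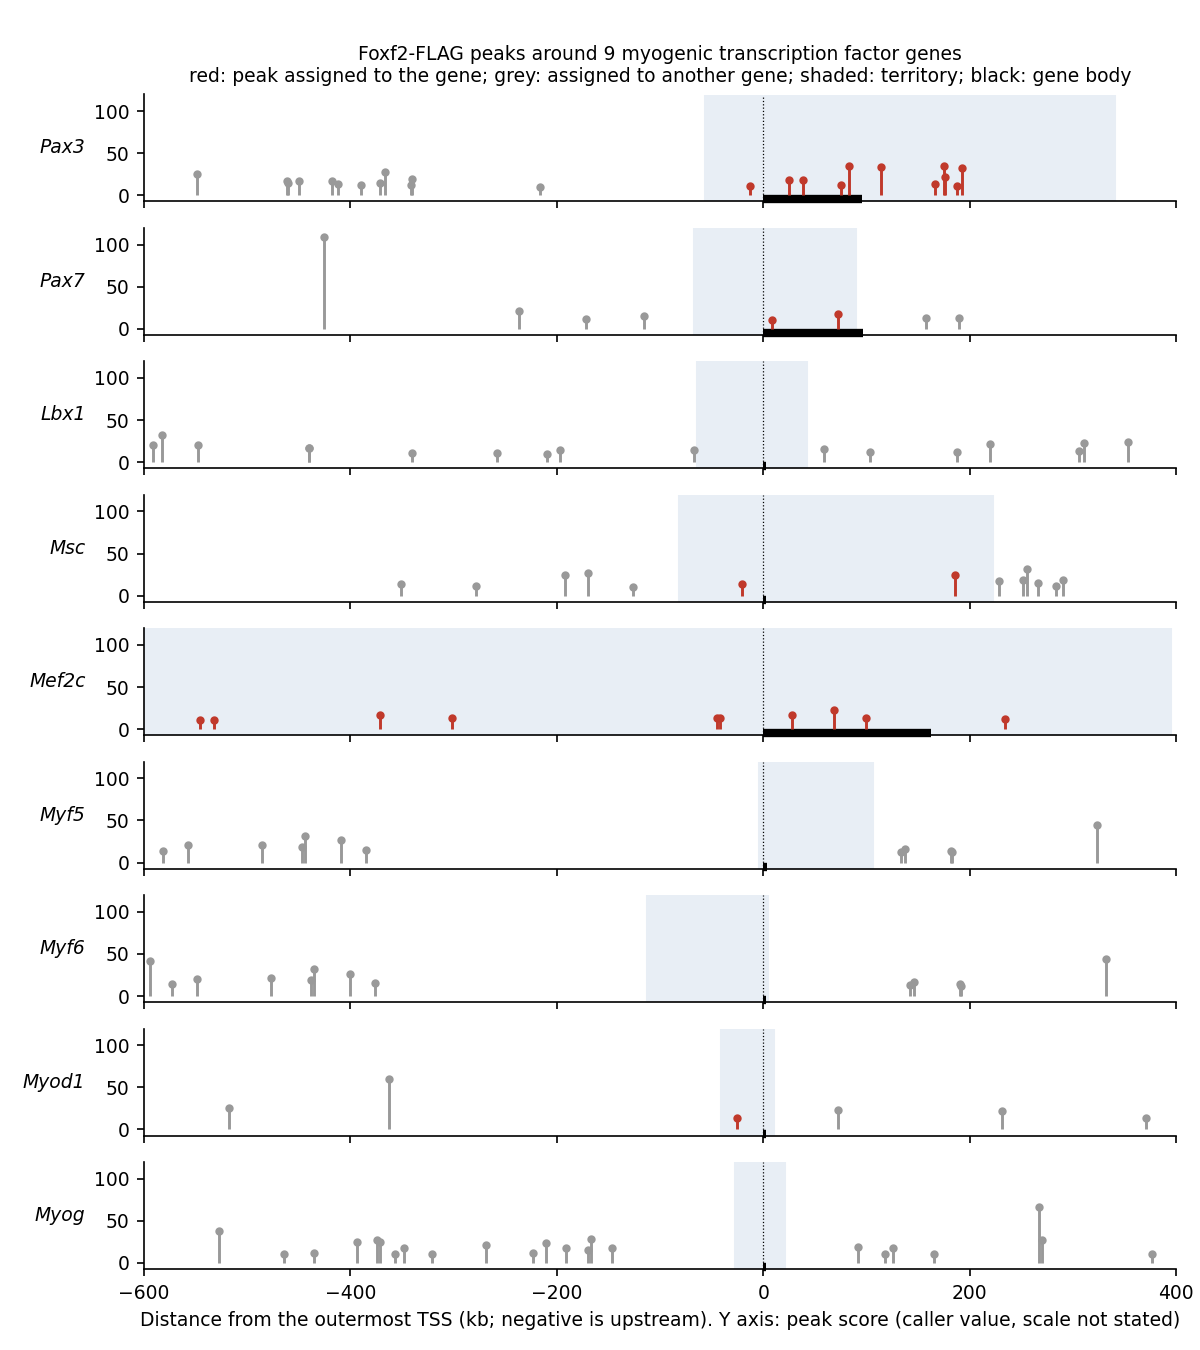
Peaks from 600 kb upstream to 400 kb downstream of the outermost TSS of each gene (x axis, kb), with the peak score as height. Red peaks were assigned to the gene and grey peaks to others, shading is the territory and the black bar the gene body. Pax3 shows 10 of its 11 peaks on the downstream side, where most of its territory lies, and the territories of Lbx1, Myf5, Myf6 and Myog are empty.

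The genes without a peak had less room than those with many. Territories of the 4 genes without a peak ranged from 48.7 kb (Myog) to 117 kb (Myf6). Among genes with territories of the size of Lbx1, Myf5 and Myf6 (90.3 to 141 kb), 57.1% had a peak, and among those of the size of Myod1 and Myog (47 to 63.4 kb) 34.5% did. At the size of Pax7 (141 to 278.3 kb) the share was 72.7%, and at that of Pax3, Msc and Mef2c (278.5 kb or more) it was 81.5%. Genes without a peak were thus not rare at the sizes of these 4 territories.

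**Figure D2:**
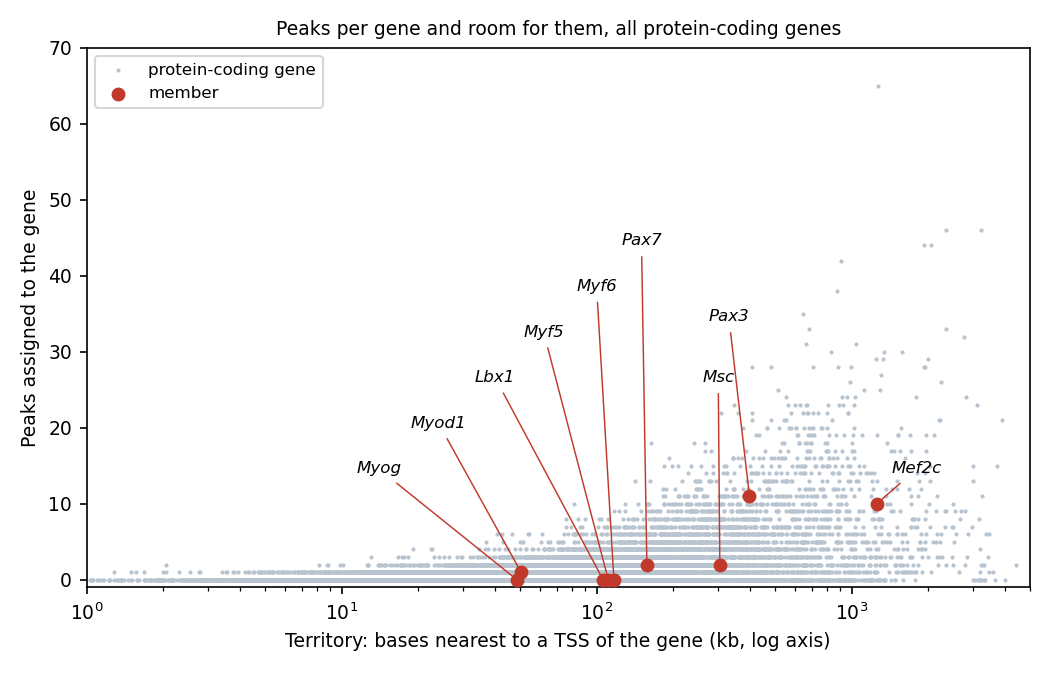
Number of peaks of each protein-coding gene against the length of its territory (kb, log axis from 1 kb), with the 9 members in red. Pax3 (11 peaks in 397.8 kb) and Mef2c (10 in 1255 kb) have similar counts in territories of very different length, and Lbx1, Myf5, Myf6 and Myog lie at 0.

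Forkhead cores were present in all 9 territories, whether or not a peak was. The main chromosomes held 1.29 cores per kb, and 0.732% of these cores lay within 100 bp of a peak centre. Myf5 and Myf6 had 1.51 and 1.68 cores per kb, 168 and 196 in all, and none lay under a peak. Myod1 and Myog had fewer, 0.534 and 0.554 per kb, with 27 in each territory, and Lbx1 had 99. At Pax3, 9 of 465 cores (1.94%) lay under its peaks, against 7 of 2095 (0.334%) at Mef2c, 2 of 119 at Pax7 and 2 of 399 at Msc.

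The scores of the member peaks ran from 10.4 to 35 with a median of 14, whereas the whole list ran from 10.1 to 243.9 with a median of 16.2. None of the 26 was in the highest-scoring 10% of the list (scores from 38.6), where 10.1% of all peaks stood. The exact 95% interval for 0 of 26 reaches 13.2%. A common approximation of the upper limit for a count of 0, 3 divided by 26, is 11.5%. The highest-scoring 25% held 5 member peaks (19.2%, exact 95% interval 6.55 to 39.4, against 25.2% of all peaks): 4 of Pax3 and 1 of Msc. At or above the list median were 12 of 26 (46.2%, interval 26.6 to 66.6, against 50.1%). The intervals are Clopper-Pearson, cover counting of peaks only, and each contains the share of all peaks.

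**Figure D3:**
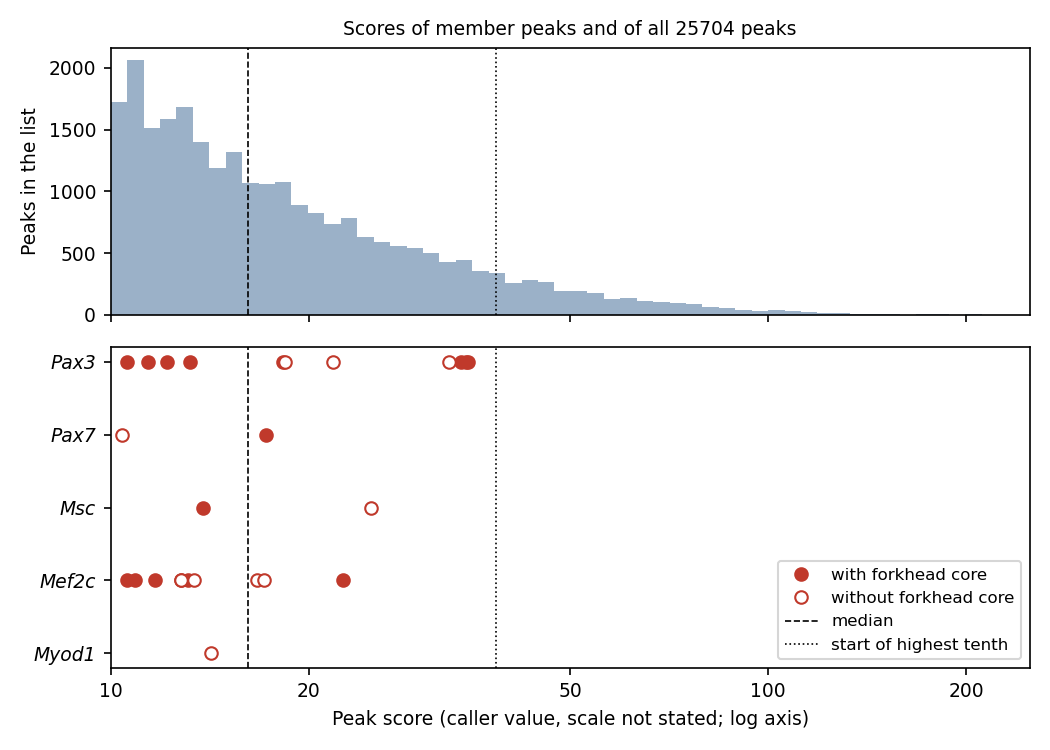
Scores of all 25704 peaks (top, number of peaks) and of the 26 member peaks by gene (bottom, filled where the peak holds a forkhead core), on a shared log axis of the caller's score. All member peaks lie left of 38.6, the start of the highest 10%, and the 4 highest belong to Pax3.

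The median distance of the member peaks from the TSS was 79.4 kb, against 51.3 kb in the list, and 3 of 26 lay within 10 kb (11.5%, interval 2.45 to 30.2, against 20.9%). Intergenic sequence held 14 (53.8%, interval 33.4 to 73.4, against 40.7%) and introns 9 (34.6%, interval 17.2 to 55.7, against 45.4%). Of the rest, 2 were in promoters, those beside Mef2c and Mir9-2 (7.69%, against 8.52%), and 1 at the transcript end of Gm9947 (3.85%, against 2.54%). Within 100 kb of the TSS lay 14 (53.8%, against 66.2%), and another peak was within 10 kb of 9 of the 26 (34.6%, against 36.7%).

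The forkhead core was found within 100 bp of the centre in 16 of the 26 member peaks (61.5%, exact 95% interval 40.6 to 79.8), and in 72.5% of all peaks. By gene, 8 of 11 Pax3 peaks, 6 of 10 Mef2c peaks, 1 of 2 at Pax7 and 1 of 2 at Msc held it. More than 1 core was in 4 member peaks (15.4%, against 21.3%). There were 20 cores in all: 8 read ATAAACA, 6 GTAAACA, 4 ATAAATA and 2 GTAAATA. Of the 20, 14 lay within 20 bp of a centre, and the same share was not computed for all peaks. The form GTAAACA was in 5 of 26 peaks (19.2%, interval 6.55 to 39.4, against 27.4%), all of them at Pax3 or Mef2c. Among the 12 member peaks at or above the median score, 7 of them of Pax3, 6 held a core (50%). In that range 78.4% of all peaks did, and no interval is given for so small a count.

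The 6 GTAAACA sites are printed in the direction of the core, with 7 bases on each side, so that their surroundings can be compared. Capitals mark the core.
Pax3, peak of score 35, first site, chr1:78113608-78113614, plus strand: tatgatcGTAAACAgtctgaa
Pax3, peak of score 35, second site, chr1:78113628-78113634, plus strand: agtcattGTAAACAtgtgggg
Pax3, peak of score 34.7, chr1:78022291-78022297, plus strand: agtcacaGTAAACActctttc
Mef2c, peak of score 22.6, chr13:83572616-83572622, minus strand: gctacatGTAAACAatcaaaa
Mef2c, peak of score 13.1, chr13:83459103-83459109, plus strand: ccacagaGTAAACAggccaat
Mef2c, peak of score 11.7, chr13:83738692-83738698, minus strand: ctttcatGTAAACAtgacctg

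The sites differ in their flanks, and 3 of the 6 have t just before the core: the second Pax3 site of the pair and the Mef2c sites in the peaks of score 22.6 and 11.7. The site in the peak of score 34.7 lay farthest from its peak centre, at 29 bp. The other 5 were within 14 bp.

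Without the full core were 10 member peaks: 4 of Mef2c, 3 of Pax3 and 1 each of Pax7, Msc and Myod1. A shorter form, TAAACA or GTAAAC, searched after the sequences had been seen, was in 5 of the 10 and in 40% of all peaks that lack the core. Either form was thus in 21 of 26 member peaks (80.8%) and in 83.5% of all peaks. The 5 are the Myod1 peak, the nearer Pax7 peak, the higher-scored Msc peak and 2 at Mef2c (scores 16.7 and 12.8). The 3 Pax3 peaks, with scores of 32.7, 21.8 and 18.4, held neither form. Of these, the one with a score of 32.7 was 54.5% repeat-masked, the most among the 26.

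E-boxes of any kind (CANNTG) were in 22 of 26 member peaks (84.6%, interval 65.1 to 95.6) and in 76% of all peaks. The forms CAGCTG and CATCTG, which bHLH factors of muscle and mesenchyme bind, were in 8 (30.8%, interval 14.3 to 51.8, against 41.8%). The higher-scored Msc peak had 3 of them, 1 a CAGCTG with its middle 3.5 bp from its centre, and no full forkhead core. A forkhead core and 1 of these E-boxes stood together in 5 member peaks (19.2%, against 29.3%): 2 at Pax3, 2 at Mef2c and 1 at Pax7. At Pax3, the intronic peak with a score of 18.4 had 2 CAGCTG E-boxes and neither forkhead form.

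Other sequences of muscle regulators were in few member peaks. The TEAD sequence GGAATG was in 5 (19.2%, interval 6.55 to 39.4, against 15.1%). The MEF2 sequence was in 1 of 26, in the Mef2c gene (against 3.54%), the CArG box of SRF in 1, past the Pax3 end (against 0.833%), and the paired homeodomain sequence (TAAT facing ATTA, 2 or 3 bases apart) in 1, at Myod1 (against 0.591%). A match is only the presence of these letters in the window. As a comparison away from the centre, windows of 200 bp lying 2000 bp to the left held a forkhead core at 5 of 26 member peaks (19.2%, interval 6.55 to 39.4) and at 18.4% of all. Those to the right held one at 10 of 26 (38.5%, interval 20.2 to 59.4) and at 18.3% of all, the only 1 of 32 such shares examined whose interval does not contain the share of all peaks.

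**Figure D4:**
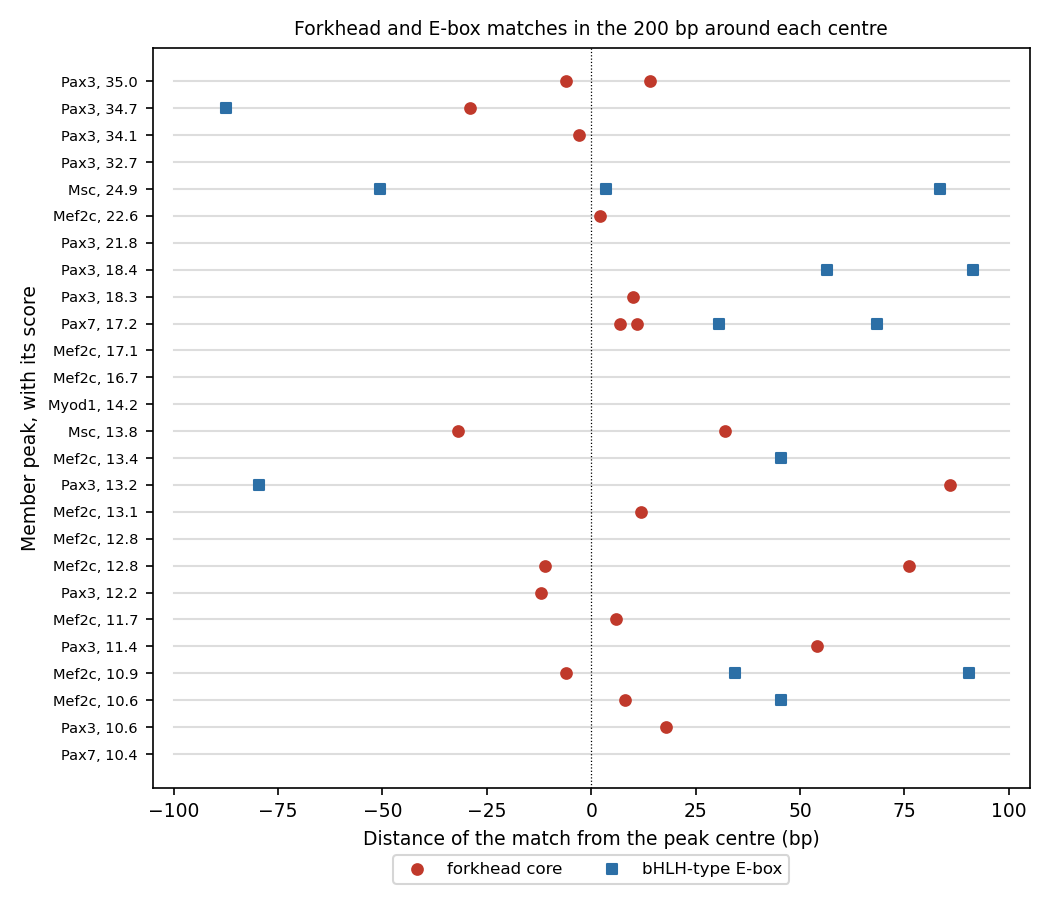
Positions of forkhead cores (red circles) and of CAGCTG or CATCTG E-boxes (blue squares) relative to the centre (bp) of each of the 26 member peaks, ordered by score. Of the 20 cores, 14 lie within 20 bp of the centre, a share that was not computed for all peaks. Both kinds of match stand together in 5 peaks.

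**Figure D5:**
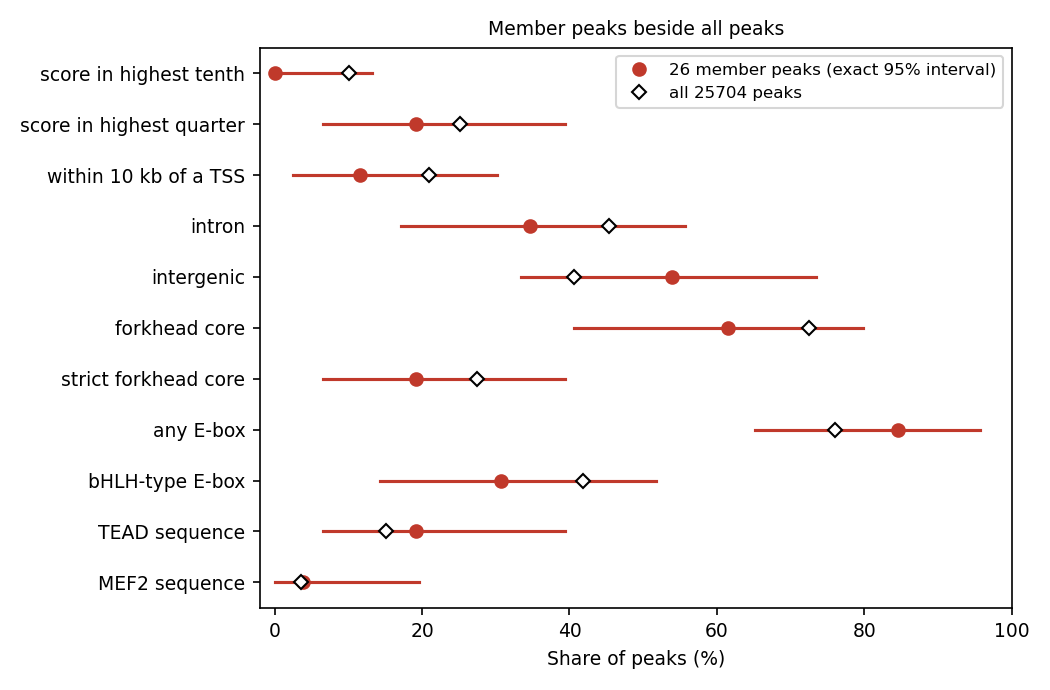
Shares of the 26 member peaks (red, with exact 95% intervals) and of all 25704 peaks (diamonds) by score, position and sequence, in percent. The strict core is GTAAACA and the bHLH-type E-boxes are CAGCTG and CATCTG. The interval of the member peaks contains the value of all peaks in each of the 11 rows.

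Other genes of the myogenic programme were counted by the same rule in lists chosen with earlier results of these data known, so that their counts are descriptions. Beside each count stand 37.3% of all protein-coding genes with a peak, 8.12% with one in the highest-scoring 10%, and a median territory of 47 kb, against 117 kb for the 9 members. The lists differed in territory, which goes with the chance of a peak, and were not compared at equal size. Regulators that act upstream of the bHLH factors had a peak at 10 of 12 genes (median territory 208.5 kb), among them Eya1 (13), Eya4 (11), Six2 (8) and Tcf21 (8). In this list, 6 of 12 genes had a peak among the highest-scoring 10%, and 0 of the 9 members did. Among them were Eya2, a transcriptional coactivator (score 203.4), Tcf21, which acts with Msc in head muscle (104), Six2 (68.2), Lhx2 (48.2) and Eya4 (45.2). Tbx1 and Six5 had no peak.

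Partners and inhibitors of the bHLH factors had peaks at 8 of 10 genes, 4 of them with a peak in the highest 10%. Their median territory was 230.9 kb, and 72.7% of genes with territories of 141 to 278.3 kb had a peak. The E-proteins Tcf4 and Tcf12, which pair with the myogenic factors, had 28 and 10, and Id2, which binds E-proteins and keeps them from DNA, had 9. Twist1, a mesenchymal bHLH repressor, had 8, the highest at 181.9. Tcf3 and Id1 had none.

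Among paralogs of the members, 3 of 6 genes had a peak (median territory 143.1 kb). Mef2d had 3, Pax9 6 and Pax1 4, and Mef2a, Mef2b and Lbx2 had none. In the list for precursor migration all 5 genes had one (median territory 428 kb), led by the chemokine gene Cxcl12 with 17, followed by its receptor gene Cxcr4 with 6, Hgf with 5 and Gab1 with 3. Of these genes, Pax9 (43.4) and Gab1 (40.5) had a peak in the highest 10%.

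Genes of muscle differentiation had a peak at 9 of 16, with 21 peaks in all and a median territory of 43.3 kb. Musk, the kinase that organises the neuromuscular junction, had 7, with the highest at 44.4, and the acetylcholine receptor gene Chrna1 had 4. Actc1, Ttn and Myl4, which encode sarcomere proteins, had 2 each. Musk was the only one of the 16 with a peak in the highest 10%. Of 5 markers of other tissues, 4 had a peak (median territory 77 kb): Myh11 (3), Acta2 (2), Sox10 (2) and Epcam (1), and Pecam1 had none.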

How the data were processed

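Per the labels, FLAG ChIP and input libraries (2 and 1) were made from embryonic tongue with the ThruPLEX kit. Per the submitters' processing notes, mm10 was the build, Bowtie2 (version 2.4.1) and SAMtools (version 1.7.1) handled the reads, and peaks were called with HOMER against the input. The sources used here do not give caller settings, depth, or whether the ChIP libraries were pooled. Per the file headers, the deposited table gives a score for each of 25707 peaks, used here only to rank, describe or filter, and a focus ratio, a fraction between 0 and 1. Peaks on main chromosomes were analysed, leaving aside 3 others.

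Here, midpoints were assigned to GENCODE M21 basic TSSs, and sequences were read from GRCm38, the same build. Motifs were searched in 200 bp around each centre. Shares carry exact 95% intervals. The members, gene lists and motifs were chosen with earlier results of these data known, so no enrichment test or p-value is given. All 9 members were named, with the highest-scored peak and the one nearest to the TSS shown for each, and up to 4 genes with most peaks in each other list (upstream regulators, partners and inhibitors, paralogs, precursor migration, differentiation, other tissues). Other genes and peaks were named after their values were seen, and some items of the lists are not reported here. On simulated data, 2000 of 2000 midpoints and 500 of 500 planted cores were recovered. The cores were planted in sequence of C and G only, so these are checks of the code and not of genomic windows. Alternatives covered the score, distance, TSS set, window and motif. Python 3.11.15, pandas 2.3.3, numpy 2.4.6, scipy 1.17.1, pysam 0.24.0 and matplotlib 3.10.9 were used.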

Additional observations from a re-analysis of the deposited data

How the results depend on the processing

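The 5 members with a peak and their 26 peaks depended on the score and distance allowed. At or above the median score, 12 peaks at 4 genes were left, and in the highest-scoring 25% 5 peaks at 2 genes, Pax3 and Msc. Within 100 kb of the TSS there were 14 peaks at the 5 genes, and within 10 kb 3 peaks at 2 genes, Mef2c and Pax7. With noncoding TSSs included, 12 peaks stayed with 3 genes, Pax3 (5), Mef2c (5) and Pax7 (2). With 1 TSS per gene all counts stayed as they were. Counting every peak within 100 kb gave 18 peaks at 7 genes, with 1 for Myog and 2 for Lbx1. In all 7 alternatives Myf5 and Myf6 had none, but most of these settings could not have given them a peak. Limits on score or distance and added noncoding TSSs can only take peaks away from a gene. Counting every peak within 100 kb added none because their nearest peaks lay farther off. The forkhead core share was 61.5% of member peaks and became 19.2% with GTAAACA alone and 80.8% with the 6-base forms added, a setting chosen after seeing the data (83.5% of all peaks). The E-box share of 84.6% became 61.5% in 100 bp windows (52.2% of all peaks) and 30.8% with CAGCTG or CATCTG alone. The other gene lists, with the markers of other tissues last, hold 12, 10, 6, 5, 16 and 5 genes. Over these lists together, 39 genes had a peak. This count was 32, 39 and 27 at the median score, within 100 kb and within 10 kb. Without such limits 37.3% of all protein-coding genes had a peak. The share of all genes under each limit was not computed, for these lists or for the members. No paired analysis was possible because the table holds no value per library. For the same reason leaving out a ChIP library was not run. Unknown depth limits what an absent peak can mean.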

Other observations

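The member peaks were like the list in shape and base composition. Their focus ratio, the caller's measure of how tightly reads gather at the centre, had a median of 0.754 (range 0.647 to 0.892), against 0.783 in the list. The sharpest was the Mef2c peak farthest upstream (0.892, score 10.9), followed by the higher-scored Pax7 peak (0.854) and the Myod1 peak (0.851). GC content had a median of 41.3% against 43.5%, and the repeat-masked share a median of 10.5% in both.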
